A study of Mus musculus with 6 samples.

Results

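The genes described here encode the abundant secreted and membrane proteins of mouse milk. They are the whey proteins Wap (whey acidic protein) and Lalba (alpha-lactalbumin), the caseins Csn1s1, Csn1s2a, Csn1s2b, Csn2 and Csn3, the glycoprotein Glycam1, and the milk fat globule membrane proteins Btn1a1 (butyrophilin) and Mfge8 (lactadherin). The set was defined by gene name, as 10 genes of the 36799 gene names on the array. The genes were chosen with earlier results of these data known, so comparisons with all genes are a description. All 10 had a probe, with 12 probes in all because Wap and Csn1s2b had 2 each, and all 10 passed the filter on dim probes. Csn1s2a, Csn2 and Glycam1 passed it although some of their channels were not above background, as given with their values.

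RNA came from live CD45- cells, which lack the leukocyte surface protein CD45, sorted from dissociated mammary tumors. The tumors had grown in syngeneic C57BL/6 hosts from transplanted late MMTV-PyMT carcinoma cells, which were either RANK-/- or RANK+/+ (RANK, the receptor activator of NF-kB, is encoded by Tnfrsf11a), and the comparison asks how loss of RANK in tumor cells changes their expression. Each 2-colour array held 1 RNA of each genotype, and the 6 arrays formed 3 pairs of RNAs with technical duplicates A and B, so that n was 3 pairs. By the labels, the RANK-/- RNA was in Cy5 in pair 1 and in Cy3 in pairs 2 and 3. The duplicates of a pair shared the same dye arrangement. The study's methods instead describe dye swaps for the RNA of each sample, and this difference could not be settled here. In both groups the polyoma middle T oncogene was driven by the mouse mammary tumor virus promoter, which is active in mammary epithelium. The null allele was carried by the transplanted cells, while by the design the host cells in the CD45- fraction, such as fibroblasts, endothelium and any host mammary epithelium, had intact RANK in both groups. The labels give no age, and do not say which tumors or hosts each RNA came from.

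The 6 arrays shared 1 slide and 1 scan time, and in each channel 51.9% to 58.8% of probes read well above background. Transcripts of the luminal keratins Krt8 and Krt18 and of Epcam were above background in all 6 arrays for both genotypes. Transcripts of Ptprc, which encodes CD45, were above background on 5 of the 6 arrays for RANK-/- and on 4 for RANK+/+. Those of the T cell gene Cd3e and of the basal keratins Krt5 and Krt14 were so on all 6 arrays for both genotypes. Of 12 leukocyte markers, 8 were above background on all arrays for RANK-/- and 7 for RANK+/+. The probe for Tnfrsf11a read higher, not lower, in the channel labelled RANK-/- (log2 ratio 2.03 in pair 1, 1.15 in pair 2 and 1.76 in pair 3). On its face this goes against the labels, but whether that probe lies in the deleted stretch is not given in the sources used here. Whether the labels are right therefore cannot be told from this probe. Every direction below is that of the library labelled RANK-/- over the library labelled RANK+/+.

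Milk protein genes are switched on in luminal alveolar cells during pregnancy and lactation. Prolactin, acting through its receptor and the kinase Jak2, activates the transcription factor Stat5, which works together with glucocorticoid receptor, C/EBP-beta, NFI and Elf5 at these promoters. Caseins form the micelles that carry calcium and phosphate, alpha-lactalbumin turns galactosyltransferase into lactose synthase, and butyrophilin and lactadherin coat the secreted fat globules. The casein genes lie together on mouse chromosome 5, whereas Wap lies on chromosome 11 and Lalba and Glycam1 lie on chromosome 15. RANK signaling is itself known for its part in alveolar development.

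RefSeq (GRCm38.p6) start sites were at hand for 7 of the 10 genes (all but Csn1s2b, Csn3 and Btn1a1), and the 250 bases before the start were searched on both strands for the Stat5 motif TTCNNNGAA. It was found in 3 of the 7, Csn1s1, Csn2 and Glycam1, against 7.02% of 32851 promoters of the same length. Counted from the start, its first base lay at -100 in Csn1s1, -93 in Csn2 and -145 in Glycam1. The half-site TGTTCT of the glucocorticoid receptor was found only in Csn1s2a among the 7 (16.1% of all promoters held it), and the octamer ATGCAAAT, bound by Oct-1, only in Csn1s1 (1.6% of all promoters). The 3 promoters with the Stat5 letters are shown beside that of Wap. In the reported setting, Wap was the only gene of the set that a test called. A match of letters is a description and not a bound site. Capitals mark the Stat5 letters, and each sequence runs 5′ to 3′ on the strand of its gene up to the base before the start. Wap is chr11:6638650-6638899 (minus strand), Csn1s1 chr5:87665958-87666207 (plus), Csn2 chr5:87699426-87699675 (minus) and Glycam1 chr15:103565082-103565331 (minus).
Wap: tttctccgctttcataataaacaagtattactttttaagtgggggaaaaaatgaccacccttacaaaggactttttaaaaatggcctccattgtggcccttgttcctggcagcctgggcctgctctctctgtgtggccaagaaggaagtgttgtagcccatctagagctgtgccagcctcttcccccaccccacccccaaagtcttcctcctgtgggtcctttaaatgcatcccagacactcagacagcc
Csn1s1: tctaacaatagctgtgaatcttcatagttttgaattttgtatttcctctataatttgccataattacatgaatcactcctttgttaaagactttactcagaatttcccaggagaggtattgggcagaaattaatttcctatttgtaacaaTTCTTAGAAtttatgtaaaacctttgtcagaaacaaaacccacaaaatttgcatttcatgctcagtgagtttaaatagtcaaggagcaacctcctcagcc
Csn2: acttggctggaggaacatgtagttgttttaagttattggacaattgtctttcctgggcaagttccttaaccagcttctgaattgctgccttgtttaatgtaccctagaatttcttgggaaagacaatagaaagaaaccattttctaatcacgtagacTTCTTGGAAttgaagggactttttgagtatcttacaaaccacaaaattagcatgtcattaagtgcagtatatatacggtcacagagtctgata
Glycam1: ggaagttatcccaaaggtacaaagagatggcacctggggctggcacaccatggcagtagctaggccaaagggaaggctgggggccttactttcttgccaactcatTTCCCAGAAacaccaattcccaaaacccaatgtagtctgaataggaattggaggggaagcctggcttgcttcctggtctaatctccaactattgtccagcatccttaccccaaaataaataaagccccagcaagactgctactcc

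Wap was higher in the library labelled RANK-/- in every pair, and it was the only one of the 10 genes to be so. In these bulk samples fewer cells of a type and less RNA per cell cannot be told apart. Its normalized log2 intensity was 14.25, 13.10 and 13.39 in the RANK-/- RNAs of pairs 1, 2 and 3, against 10.50, 12.39 and 9.56 in the RANK+/+ RNAs. The lowest RANK-/- value therefore lay above the highest RANK+/+ value, and the spread was wider among the RANK+/+ RNAs (SD 1.44) than among the RANK-/- RNAs (SD 0.60). The log2 ratios were 3.75, 0.71 and 3.82, with a mean of 2.76 ± 1.78 (SD, n = 3), or 6.78-fold. The second Wap probe gave 3.66, 0.38 and 3.77, so both probes placed pair 2 far below the other pairs. Among 22503 genes ranked from the highest ratio down, Wap was number 7 in pair 1 and number 8 in pair 3.

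The limma test across all genes gave Wap an unadjusted p of 0.0154 and a Benjamini-Hochberg adjusted p of 1.00, and so did not call it. It called 0 of 22503 genes, a background of 0%, with 647 at an unadjusted p under 0.05, and Wap was the 1 member among those 647. The rank product, which ranks the genes within each pair, called Wap higher with a proportion of false positives of 0.003. It called 10 genes higher (0.0444% of those tested) and 6 lower (0.0267%), and Wap was the only member called. This call rested on pairs 1 and 3, since the proportion of false positives was 0.157 without pair 1 and 0.341 without pair 3, and it was 0.0636 when the scanner software's processed signals were used. The rank product also treats all genes as equally variable between pairs, which these genes were not, so this proportion can be too small.

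**Figure D1:**
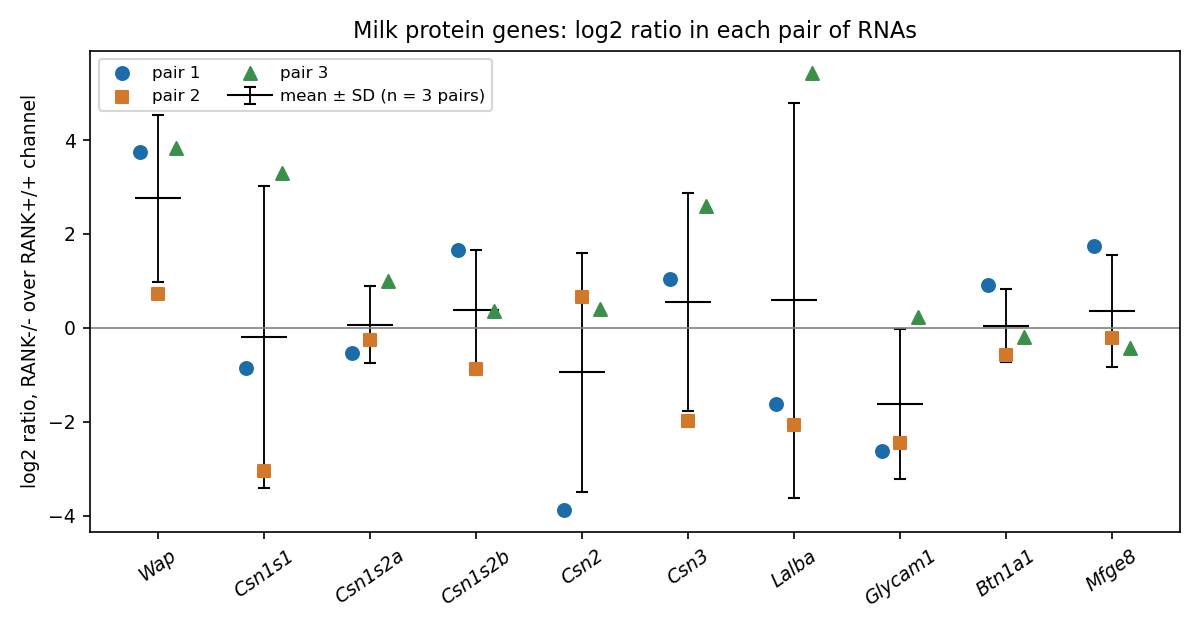
Log2 ratio of the RANK-/- over the RANK+/+ channel for each milk protein gene (y axis) in pairs 1, 2 and 3 (points), with the mean and SD over the 3 pairs (bars). Wap alone has all 3 points above 0, and the ratios of Lalba run from -2.07 to 5.44.

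Across the 10 genes, 1 was higher in all 3 pairs, 0 were lower in all 3 and 9 changed sign between pairs, where 9.95% of all genes were higher and 9.65% lower in all 3. For 1 of the 10, Wap, the RANK-/- and RANK+/+ intensities did not overlap, against a background of 7.46%. Neither share stands apart from its background. Ratios of at least 2-fold within a pair were more frequent than among all genes. In pair 1 they were found in 7 of the 10 (4 higher, 3 lower) against 6.5% of all genes. They were found in 4 in pair 2 (0 higher, 4 lower) against 4.82%, and in 5 in pair 3 (5 higher, 0 lower) against 7.92%. Since the set was chosen with earlier results of these data known, these counts are a description and not a test. Of the 22503 genes behind the percentages, 14673 had a RefSeq symbol. In all, 9 of the 10 differed by 2-fold or more in at least 1 pair, as did 14.9% of all genes, and only Btn1a1 did not. Csn1s1, Csn3 and Lalba, 3 of the 10, were at least 2-fold higher in 1 pair and at least 2-fold lower in another, as were 1.88% of all genes.

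The signs were divided evenly in pair 1 and leaned one way in each of the other pairs. Across genes as well, the ratios of different pairs were weakly related. Pearson's r was -0.279 for pairs 1 and 2, 0.178 for pairs 1 and 3, and -0.0792 for pairs 2 and 3. Of the 10 genes, 5 had a ratio above 0 in pair 1, 2 in pair 2 and 8 in pair 3 (7 with median centring, where Csn1s2b turned to -0.13). The median ratio was 0.19, -0.73 and 0.70 in pairs 1, 2 and 3, where the medians over all genes were 0.02, -0.01 and 0.00. The median of the 10 mean ratios was 0.22, less than the SD of 0.72 between the 3 pair medians. It was -0.08 with median centring, 0.83 without pair 2 and -0.43 without pair 3, so it had no settled direction. The SD of a member's ratio over the pairs had a median of 1.69, against 0.329 for all genes, and 8 of the 10 were in the top 5% of genes by this SD. Arrays A and B of the same RNAs differed in the ratio by at most 0.31 for any of these genes, so the differences between pairs were far larger than those between technical duplicates.

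Lalba, the regulatory subunit of lactose synthase, varied most. Its log2 intensity was 13.45, 11.92 and 16.22 in the RANK-/- RNAs and 15.07, 13.99 and 10.78 in the RANK+/+ RNAs of pairs 1, 2 and 3. The highest and the lowest of the 6 values thus came from the same pair, pair 3, where the RANK-/- channel was 43.3-fold above the RANK+/+ channel. That was the largest ratio of any gene in that pair. The ratios of -1.62, -2.07 and 5.44 averaged 0.58 ± 4.21 (SD, n = 3; limma adjusted p = 1.00). Its SD was number 2 among the 22503 genes.

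Among the caseins, Csn1s1 (alpha-s1-casein) had log2 intensities of 11.44, 10.84 and 12.87 in the RANK-/- RNAs and 12.31, 13.88 and 9.57 in the RANK+/+ RNAs. It followed the order of Lalba over the pairs, with ratios of -0.86, -3.04 and 3.29 and a mean of -0.20 ± 3.22 (SD, n = 3). Csn3 (kappa-casein, which stabilizes the micelle) had 9.85, 7.99 and 9.85 against 8.80, 9.98 and 7.26. Its ratios of 1.05, -1.99 and 2.59 shared the signs of Csn1s1 in pairs 2 and 3 but not in pair 1. In both genes the RANK+/+ RNA of pair 2 was the highest of the 6 and the RANK+/+ RNA of pair 3 the lowest, so the extremes lay within 1 genotype.

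Csn2 (beta-casein) behaved differently. Its log2 intensity was 9.75 in the RANK+/+ RNA of pair 1 and between 5.87 and 6.83 in the other 5 RNAs. It was above background on both arrays in the RANK+/+ channel of pair 1 and the RANK-/- channels of pairs 2 and 3, on 1 array in the RANK+/+ channel of pair 2, and on none in the RANK-/- channel of pair 1 and the RANK+/+ channel of pair 3. In pair 1 the RANK+/+ channel was therefore at least 12.5-fold higher, taking for the dim channel the lowest signal well above background or the probe's own if higher. In pair 3, where both channels were dim, the RANK-/- channel was at least 1.23-fold higher by the same rule. The measured log2 ratios of pairs 1, 2 and 3 were -3.88, 0.66 and 0.39, and their size depended on the processing. With the scanner software's processed signals they were -7.78, 2.16 and 3.05. The mean of the measured ratios was -0.94 ± 2.55 (SD, n = 3), and its sign came from pair 1, without which it was 0.52. The gene passed the filter on dim probes only through the RANK-/- channel, the higher one in pairs 2 and 3. Its inclusion in the test therefore already depended on that difference.

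The ratios of the paired alpha-s2-casein genes had a smaller SD over the pairs (1.27 for Csn1s2b and 0.82 for Csn1s2a) than those of the other caseins. Csn1s2b gave log2 intensities of 9.26, 8.17 and 8.87 in the RANK-/- RNAs against 7.60, 9.04 and 8.51 in the RANK+/+ RNAs, with ratios of 1.66, -0.87 and 0.36. Csn1s2a gave 6.43, 6.45 and 7.16 against 6.97, 6.70 and 6.16, with ratios of -0.54, -0.25 and 1.00. Its signals were dim, and the size of its ratios depended on the processing. With the scanner software's processed signals they were -1.74, -0.83 and 2.76. Genotypes overlapped in both. Csn1s2a was not above background in the RANK+/+ channel of pair 3, where the RANK-/- channel was at least 2-fold higher. A second Csn1s2b probe was above background on 1 of 6 arrays for each genotype, so it measured no ratio and was not used. None of the 5 caseins was called by limma (adjusted p = 1.00 for each) or by the rank product.

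The casein genes lie in one stretch of chromosome 5, with other genes between some of them, and their ratios differed in sign within pairs 1 and 2. In pair 1 Csn2 and Csn1s1 were lower while Csn1s2b and Csn3 were higher in the RANK-/- channel, and in pair 3 all 5 were higher, up to 3.29 for Csn1s1, except that Csn1s2b (0.36) turned to -0.13 with median centring. Promoters were searched for 3 of the 5 caseins, and Csn2 and Csn1s1 held the Stat5 letters while Csn1s2a did not. Of these, Csn2 was at least 12.5-fold and Csn1s1 0.86 on the log2 scale lower in the RANK-/- channel of pair 1, and their log2 ratios were 0.66 and -3.04 in pair 2. In the RefSeq order, Prr27, Gm7337 and Odam lie between Csn1s2b and Csn3. Prr27 had ratios of -0.87, 0.08 and -0.81, the pseudogene Gm7337 had 0.01, 0.03 and 0.03, and Odam had no probe that passed the filter. Of the genes flanking the stretch, Smr3a, a salivary gland gene, had 3.53, 0.98 and -1.37 and Smr2 had 0.63, -0.04 and -0.71, while no probe of Sult1b1, Sult1d1, Sult1e1 or Cabs1 passed. Prr27, Smr3a and Smr2 were thus lower in pair 3 and Gm7337 was close to 0.

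Glycam1 encodes a mucin-like glycoprotein of milk that is also made by high endothelial venules, the vessels through which lymphocytes enter lymph nodes. Its log2 intensity was 6.28, 6.26 and 6.13 in the RANK-/- RNAs and 8.91, 8.72 and 5.91 in the RANK+/+ RNAs. The 3 RANK-/- RNAs and the RANK+/+ RNA of pair 3 thus lay close together near background, and the RANK+/+ RNAs of pairs 1 and 2 stood above them. In pair 3 it was above background on 1 array in the RANK-/- channel and on none in the RANK+/+ channel. The log2 ratios were -2.62 and -2.46 in pairs 1 and 2. There the RANK-/- channel was near background, on only 1 array above it in pair 1, and the size of these ratios depended on the processing. They were -3.60 and -3.53 with the authors' series table and -4.78 and -4.53 with the scanner software's processed signals. In pair 3 both channels were too close to background for a direction to be read. Counting Glycam1 as above 0 in pair 3, and as changing sign between pairs, thus rests on values near background. The fit used the measured value of 0.22 for pair 3, which gave a mean of -1.62 ± 1.60 (SD, n = 3). The gene passed the filter on dim probes only through the RANK+/+ channel, where it was the higher in pairs 1 and 2, so its inclusion in the test already depended on that difference. Limma did not call it (p = 0.0607, adjusted p = 1.00) and neither did the rank product (proportion of false positives 0.116), but it was called lower at 0.0417 with the scanner software's processed signals and at 0.0427 with the authors' series table. Of the other markers of high endothelial venules, Chst4 was above background on no array. Ackr1 was higher in all 3 pairs, with 0.38, 0.27 and 1.39. The ratios were -0.12, 0.42 and 0.01 for Madcam1, -0.06, -0.41 and 0.66 for Selp and -0.13, -0.22 and 0.03 for Fut7.

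The fat globule membrane genes were above background in every RNA, with smaller spreads than most of the others. Btn1a1 ran from 13.24 to 13.94 in the RANK-/- RNAs and from 13.02 to 13.82 in the RANK+/+ RNAs, with ratios of 0.92, -0.58 and -0.20. Mfge8, a bridge between apoptotic cells or fat globules and phagocytes or epithelium, ran from 16.85 to 17.81 and from 16.07 to 17.77, with ratios of 1.73, -0.21 and -0.43. For both genes pair 1 alone was higher in the RANK-/- channel, except that Mfge8 in pair 2 turned to 0.15 with processed signals and 0.30 with the authors' series table. Pair 1 was also the only pair with the RANK-/- RNA in Cy5. Genotype and a dye bias of these probes thus cannot be told apart in this pattern. A sign in pair 1 opposite to both other pairs was found in 28.8% of all genes. The genotypes overlapped in both Btn1a1 and Mfge8. Mean ratios were 0.04 ± 0.78 for Btn1a1 and 0.36 ± 1.19 for Mfge8 (SD, n = 3), and with median centring they turned to -0.28 and -0.18.

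**Figure D2:**
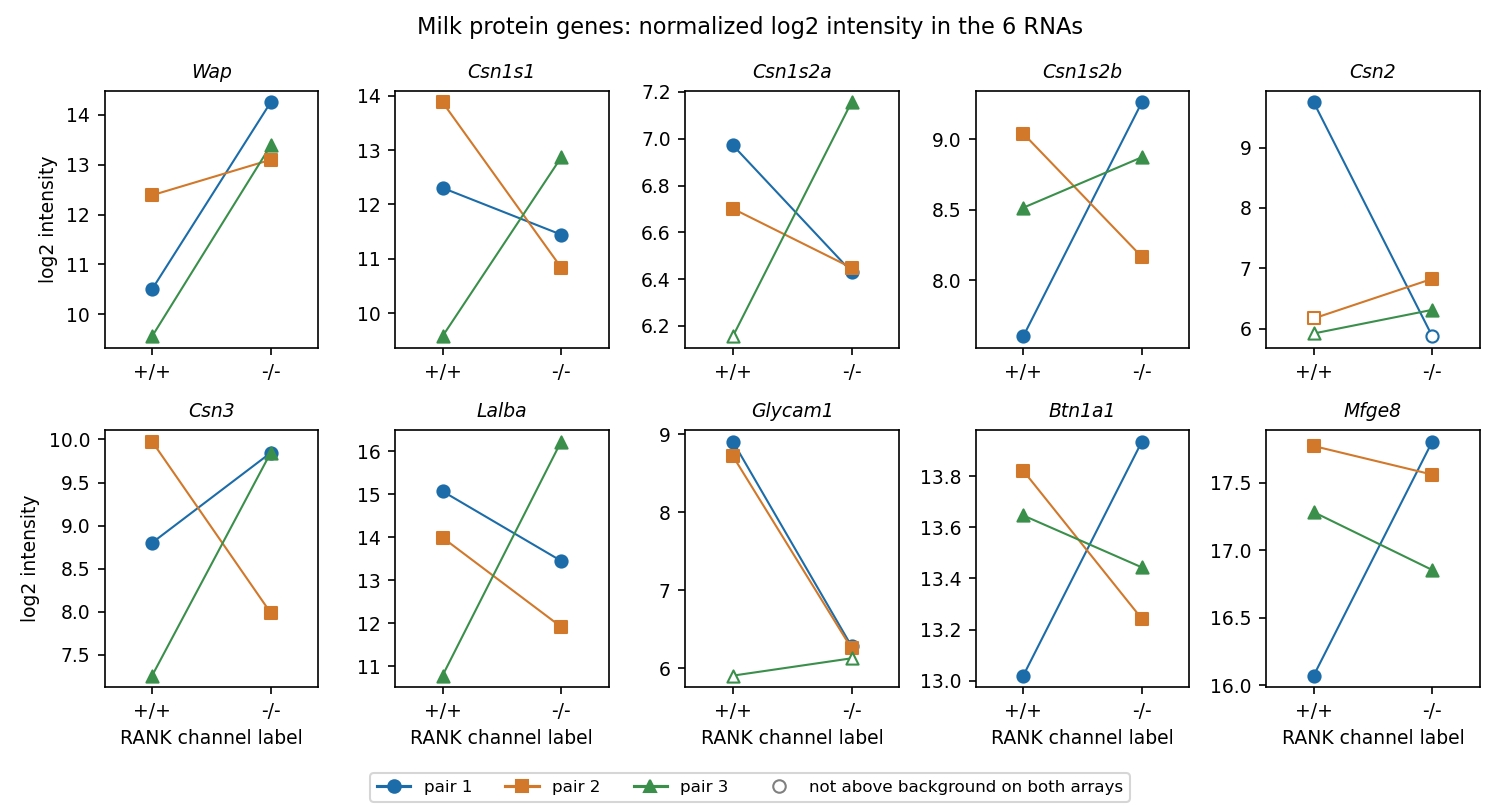
Normalized log2 intensity (y axis, scaled for each gene) of the 10 milk protein genes in the RANK+/+ and RANK-/- channels, with a line for each pair and open symbols where the probe was not above background on both arrays. All 3 lines rise for Wap, while the other genes have lines that rise and lines that fall. The RANK-/- values of Glycam1 lie between 6.13 and 6.28.

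Other milk genes, 24 in all and every one tested, included none that was higher in all 3 pairs and 3 that were lower, Atp2b2, Wfdc12 and Fabp3. Their median ratios of 0.51, -0.52 and 0.45 in pairs 1, 2 and 3 had the same signs as those of the 10 milk protein genes. Trf, the iron carrier transferrin, had the largest mean ratio, with 2.82, -0.69 and 0.73, followed by the folate receptor Folr1 with 0.73, -0.30 and 2.01. Fabp3, a fatty acid binding protein of milk, had -1.14, -1.63 and -0.99, and Wfdc12, which like Wap has a WAP domain, had -1.39, -1.16 and -0.59. None of the 24 was called by limma or by the rank product.

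In the lactogenic hormone axis 14 of 15 genes were tested, Erbb4 being above background on no array. Of these, Stat5a was higher in all 3 pairs, with 0.01, 0.27 and 0.71, and Id2 lower, with -0.58, -0.41 and -1.19. The prolactin receptor Prlr had ratios of 0.67, -0.88 and 1.43. Elf5, the alveolar transcription factor, had 0.73, -0.12 and 1.22, and Gata3, a luminal transcription factor, 0.68, -0.20 and 1.28. These 3 were lower in pair 2 alone, as was the median of the list, which was 0.36, -0.22 and 0.59. Socs2, a feedback inhibitor induced by Stat5, had 0.44, -1.38 and -1.02. Neither test called any gene of the list.

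Milk fat synthesis genes differed in that their median was not below 0 in pair 2, at 0.01, 0.13 and 0.37 over 16 of 16 genes tested. Lpin1, Olah and Fasn were higher in all 3 pairs and none was lower. Lpin1, a phosphatidate phosphatase, had 1.44, 0.14 and 1.03, and Olah, the thioesterase that ends medium-chain fatty acid synthesis, had 0.22, 1.08 and 1.21. The lowest means were those of Dgat2 with -1.32, 0.58 and -0.29 and Thrsp with -0.32, 0.23 and -0.51. Neither test called any of these genes, and the difference between this list and the milk protein genes was not tested.

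Markers of cell types moved with the pairs as well. The 16 luminal epithelium markers, all above background on all arrays, had medians of 0.29, -0.54 and 0.49, the same signs as the milk protein genes. Their summed linear intensity ranged from 215500 to 542200 in the RANK-/- RNAs and from 239900 to 363600 in the RANK+/+ RNAs, and 1 of 16 (Spint1) was higher in all 3 pairs. Within the list Krt8 had -0.41, -0.55 and 2.08, Cd14 0.64, -0.07 and 1.27, and Krt19 -1.22, -3.95 and 0.03, so the markers did not agree among themselves. Taken relative to the luminal median of each pair, the ratios of Wap were 3.46, 1.26 and 3.34. Those of Lalba were -1.90, -1.53 and 4.95. Shifts of 0.29, -0.54 and 0.49 could not turn the sign of either gene in any pair, so the kept signs say nothing about luminal content. This scaling was chosen after the values were seen.

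Fibroblast markers had medians of 0.13, 0.57 and 1.88, with 3 of 10 higher in all 3 pairs and a summed intensity of 147900 to 241300 in the RANK-/- RNAs against 55420 to 150900 in the RANK+/+ RNAs. The largest means were those of Col1a2 with 0.61, 0.85 and 2.37 and Dcn with -0.71, 1.50 and 2.92, and the smallest those of Pdgfrb with 1.60, -1.03 and 0.76 and Postn with 0.10, -0.71 and 0.90. Leukocyte markers (10 of 12 tested) had medians of -0.52, 0.15 and 0.10, and their sum was 30170 in the RANK+/+ RNA of pair 1, the one with high Csn2, against 8610 to 12210 in the other 5. S100a8 alone made 19940 of it, and without S100a8 the sum was 10220 there and 7264 to 10950 in the others. Basal markers (11 of 11 tested) summed to 32790 to 39750 for RANK-/- and 44250 to 56820 for RANK+/+, with 1 higher and 1 lower in all 3 pairs and medians of 0.07, -0.10 and -0.01. Without Krt5, Krt14 and Krt17 the sums overlapped, at 17710 to 28490 and 11730 to 26300. Endothelial markers (10 of 10 tested) had medians of 0.01, -0.07 and 0.53, with 0 of one sign in all 3 pairs. The part of these cell types in the milk protein ratios was not tested. Of the adipocyte markers, Adipoq, Plin1, Lep, Cidec and Car3 were above background on no array, while 4 of 10 were tested and 1 of them, Fabp4, was higher in all 3 pairs, with 0.02, 0.19 and 0.59.

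**Figure D3:**
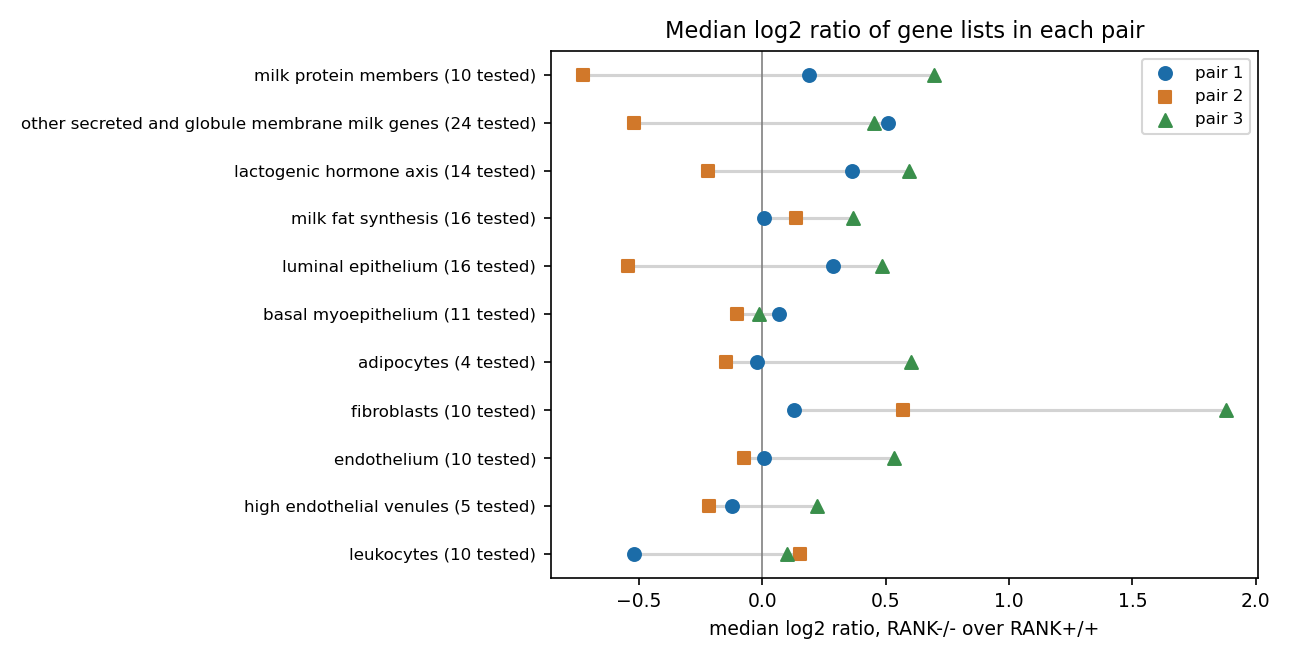
Median log2 ratio of the RANK-/- over the RANK+/+ channel (x axis) for the milk protein genes and 10 other gene lists (y axis, with the number of genes tested) in pairs 1, 2 and 3. The medians of the milk protein genes, the other milk genes, the lactogenic axis and the luminal markers are negative in pair 2 and positive in the other pairs, and the fibroblast median reaches 1.88 in pair 3.

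The genes nearest to the caseins in pattern were sought by the Euclidean distance of the 3 pair ratios from the casein median, which was -0.54, -0.87 and 1.00. The 5 nearest were Tppp3, Gt(ROSA)26Sor, Slc44a4, Ccdc9b and Mical1, at distances of 0.07 to 0.21. Tppp3, for instance, had -0.49, -0.91 and 1.01. With 3 points per gene, such nearness says little. The caseins themselves lay farther from their own median. Csn1s2a, the closest of the 5 caseins, lay at a distance of 0.62, and 125 genes were nearer than that.

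**Figure D4:**
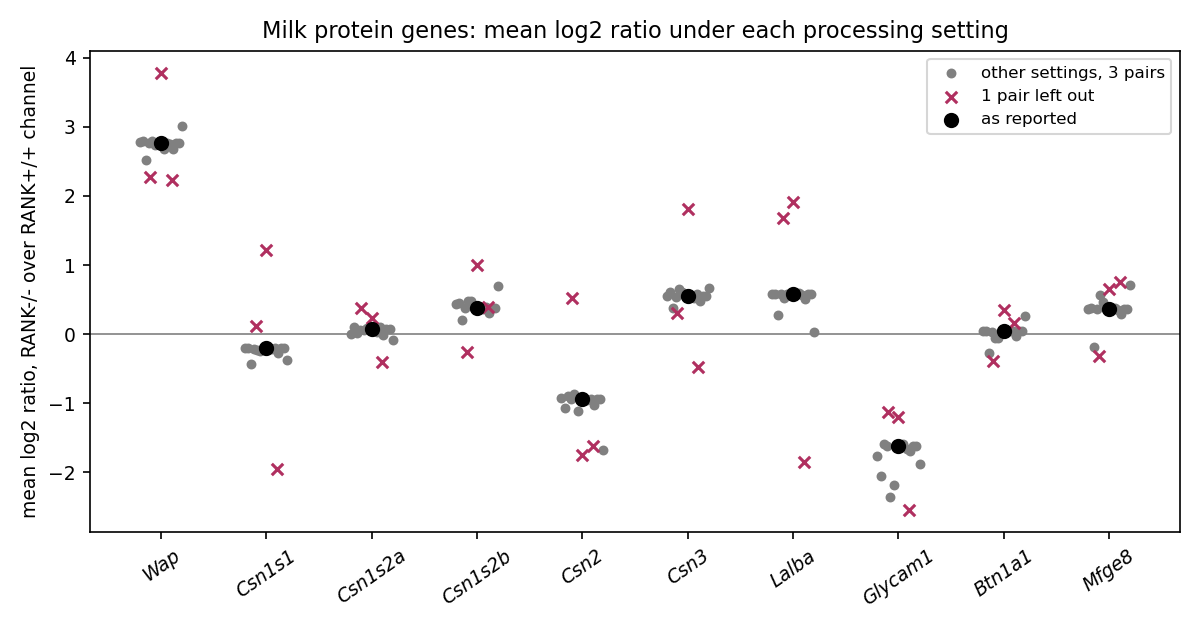
Mean log2 ratio of each milk protein gene (y axis) as reported (black), under the other processing settings with all 3 pairs (grey), and with 1 pair left out (crosses). Wap stays above 0 (2.23 to 3.78) and Glycam1 below 0 (-2.54 to -1.12), while each of the other 8 has values on both sides of 0.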

How the data were processed

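RNA of sorted CD45- tumor cells was measured on 6 arrays, each with 1 RANK-/- and 1 RANK+/+ RNA. The authors extracted the spots with Feature Extraction (10.7.3.1, per the submitters' processing notes), and the deposited scanner files give median signal and background intensity per spot and channel, not normalized. The deposited processed intensity is background-subtracted and dye-normalized. A further deposited file of the whole series holds log2 ratios normalized by the authors. The methods describe ratios of a condition over its control without naming the control for these arrays, and the values correlated positively with the RANK-/- over RANK+/+ scanner ratios on all arrays (r from 0.825 to 0.858 across spots). Their exact scale and centring stay unknown, and like the processed intensities they served for comparison alone. The files' log10 ratios were not used.

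Median signals were corrected with normexp (offset 50) and normalized by loess within and Aquantile between arrays in limma 3.58.1 (R 4.3.3, data.table, version 1.17.8). Loess removes dye bias that depends on intensity, but not that of single probes, since by the labels no pair held its own dye swap. The spatial loess of the study's methods was tried separately. Control spots (3671) and outlier spots (212 to 260 per array) were left out, no spot was saturated (0), and means were taken over the spots of a probe and over technical duplicates. Probes stayed in where, for at least 1 genotype, 2 or more pairs had the probe well above background on both duplicates, which left 30231 of 55681 (54.3%), and the brightest kept probe stood for its gene. RefSeq symbols were matched by accession for 28026 probes, and the others kept the file's accession. The 3 pair ratios were tested by limma with Benjamini-Hochberg adjustment and by a rank product with 500 draws of null ranks, both at 0.05, over 22503 genes. Both were tested on simulated data, where the rank product called no unchanged gene if all genes had the same spread but did call some if spread differed between genes as in these data, so its proportions of false positives can be too small for variable genes. With 3 pairs an exact two-sided sign flip cannot go below 0.25, so none is given, and the number of arrays limits the precision.

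All 10 milk protein genes were to be named, with every probe, and from each other list the 2 genes with the largest and the 2 with the smallest mean ratio, plus Prlr, Stat5a, Elf5, Tnfrsf11a, the neighbours of the casein genes and the 5 genes nearest in pattern. The naming by mean ratio was not carried out in full for the luminal, basal, leukocyte, endothelial and adipocyte lists. Other names were added after their values were seen. The genes and lists were chosen with earlier results of these data known. Alternatives covered the background correction, normalization, filter, probe summary, block, dye and each pair left out.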

Additional observations from a re-analysis of the deposited data

How the results depend on the processing

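Over 18 alternatives, 177 values of single genes were recomputed, and 160 kept their direction and their side of the limma threshold. With all pairs used, 7 changed sign: the mean ratio of Btn1a1 was -0.28 with median centring, -0.0503 with processed signals, -0.0621 with the series table and -0.0308 relative to the luminal median, that of Mfge8 was -0.18 with median centring, and that of Csn1s2a was -0.0833 with a dye term and -0.006 relative to the luminal median. Median centring also moved the median of all genes to -0.14. The median over the members was -0.08 with median centring and ran from -0.43 to 0.83 with 1 pair left out. Of 180 values of single pairs under other normalizations 3 changed sign. Leaving out 1 pair changed 9 signs, and the ranges were -1.95 to 1.22 for Csn1s1, -0.40 to 0.37 for Csn1s2a, -0.26 to 1.01 for Csn1s2b, -1.74 to 0.52 for Csn2, -0.47 to 1.82 for Csn3, -1.85 to 1.91 for Lalba, -0.39 to 0.36 for Btn1a1 and -0.32 to 0.76 for Mfge8. Pairs decided these signs, whereas Wap (2.23 to 3.78) and Glycam1 (-2.54 to -1.12) kept theirs.

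The rank product called between 0 and 1 member when 1 pair was left out, with 0 without pair 1 and 0 without pair 3. It called 2 with the series table (Wap and Glycam1), and with processed signals it called Glycam1 in place of Wap. Over all genes it called 16 in the reported setting and 35 without the filter. The cause of these changes was not tested. Limma called 0 members under every other alternative than the one described last, and over all genes it made 13 calls with the pair as a random block and 0 otherwise. The pairing of channels was not taken from the numbers alone (correlations of deviations within pairs -0.03, -0.22 and -0.04), and without the replicate block limma called 0 members and 0 genes. A slide block was not run, since 1 slide held all arrays.

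One alternative, chosen after seeing the data, called 1 member by limma (and 25 of all genes): with every gene taken relative to the luminal median of its pair, Wap had a mean ratio of 2.69 and a limma adjusted p of 1.14e-05, against 0.0659 to 1 under the other alternatives. That value comes from the way the alternative was made and carries no weight for Wap. With the same shifts subtracted from all genes, limma estimated an infinite prior df (2.31 in the reported fit), and all genes were tested with a single SD of 0.761, below the SD of 1.24 that Wap itself had on that scale.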
